A study of Homo sapiens with 6 samples.

Results

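The 10 enzymes PHGDH, PSAT1, PSPH, SHMT1, SHMT2, MTHFD1, MTHFD2, MTHFD1L, MTHFS and ALDH1L2 make serine and carry its one-carbon units on folate. They were chosen by name, with no limit on any measured value, and all 10 are among the 11118 genes tested. The list was written with earlier results of the same irradiated-over-control comparison known, a fall of PHGDH transcripts among them. The adjusted p-values given here, each adjusted over all features tested, therefore describe differences against the spread between cultures as each fit estimated it. They are not independent evidence. The transcript table held 137 rows for these genes out of 153848, and 107 of them passed the filter on low counts, out of 74843 kept transcripts.

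RNA came from HMC3 cells, an established human microglial line. Both groups were untreated but for the beam: 3 control cultures received 0 Gy and 3 irradiated cultures received 15 Gy of 6 MV X-rays at 3 Gy per minute, and all were collected after 24 h. Full-length cDNA was read on the Oxford Nanopore platform, and the library totals ran from 4870897 to 9082409 counts. The comparison asks how the level of each gene and the mix of its isoforms differed after irradiation.

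The line was checked against microglial markers. Of 15 markers looked up, 7 had a row, while CX3CR1, P2RY12, P2RY13, TMEM119, ITGAM, TYROBP, C1QA and C1QB had none. AIF1, CSF1R, PTPRC and SPI1 lay between 0 and 1.45 CPM (counts scaled to a common library size) in every library. TREM2 and CD14 reached at most 1.88 and 2.46 CPM, while CD68 ran from 20.3 to 40.5 CPM. The summed level of the 7 was 22.6 to 29.7 CPM in the controls and 38.6 to 44.0 CPM after irradiation on library totals. With the TMM factors used for all other levels it was 24.3 to 37.5 CPM and 32.8 to 37.3 CPM, and the groups overlapped. Its part in the results was not tested. Of 8 fibroblast and pericyte markers looked up, COL1A1 and THY1 reached 263 and 116 CPM. The others were low: COL1A2, PDGFRB and RGS5 reached at most 10.2, 3.49 and 1.88 CPM. DCN and PDGFRA reached at most 0.313 and 0.289 CPM, and LUM had no row. Control 3 stood nearest to the irradiated libraries, with correlations of 0.963 to 0.971 over genes against 0.937 to 0.952 for the other controls.

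Serine is built from a glycolytic intermediate in 3 steps, catalysed in turn by PHGDH, PSAT1 and PSPH. SHMT1 in the cytosol and SHMT2 in mitochondria then split serine to glycine and place its carbon on tetrahydrofolate. MTHFD1 in the cytosol, and MTHFD2 with MTHFD1L in mitochondria, interconvert the folate-bound forms, which serve purine and thymidylate synthesis. In many cell types the transcription factor ATF4 drives serine synthesis genes when amino acids are short.

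After irradiation 4 of the 10 genes were lower at an adjusted p under 0.05 (PHGDH, PSAT1, MTHFD2 and MTHFD1) and 1 was higher (ALDH1L2). Over all 11118 genes, 14.1% were lower and 11.6% higher by the same rule. PSAT1 alone also passed an absolute log2 fold change of 1 in this fit, as did 5.7% of all genes. PHGDH passed it too by another tool, DESeq2, and with another scaling, RLE factors (-1.02 in each). It also did without control 3 (-1.1) or irradiated 2 (-1.12). The control and irradiated libraries did not overlap for the same 5 genes, 4 of them lower and 1 higher, where 21.3% of all genes were lower without overlap and 21.5% higher. The median log2 fold change of the 10 was -0.35 against 0.08 for all genes. In RNA from whole cultures, fewer cells of a kind and less RNA per cell cannot be told apart.

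**Figure D1:**
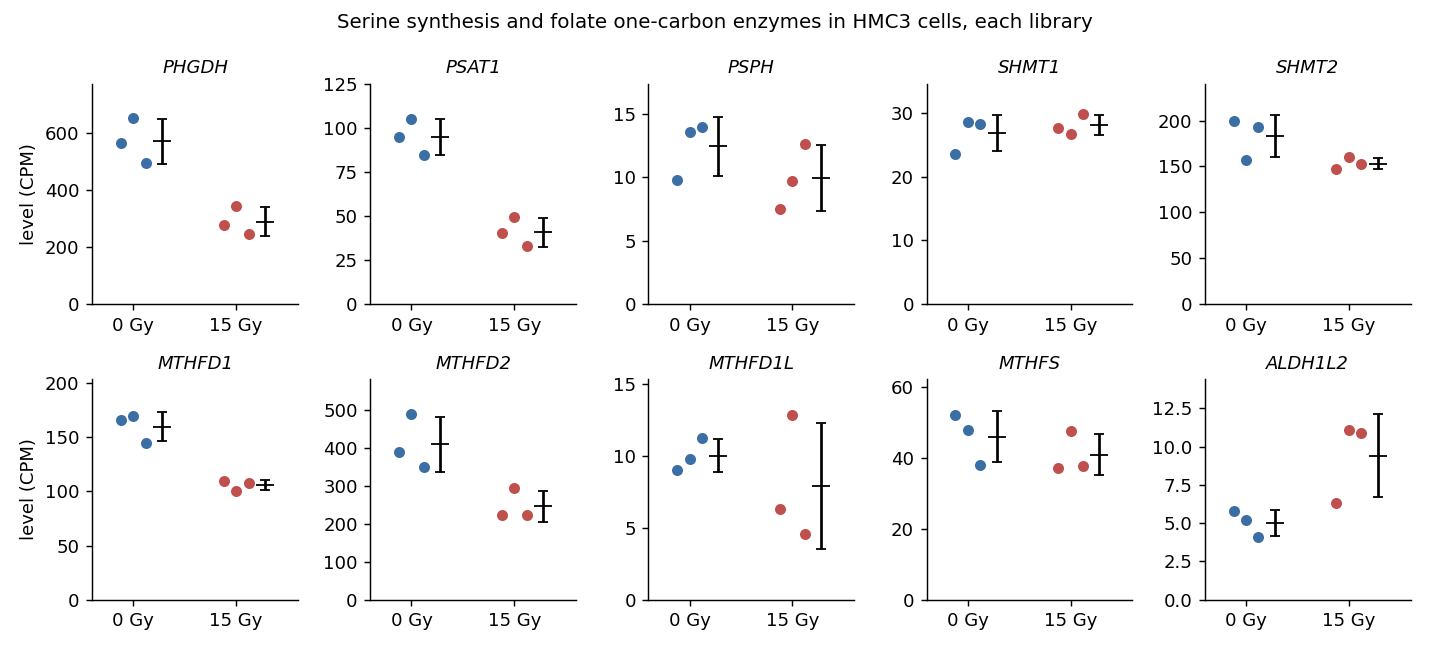
Levels in TMM-normalized CPM (vertical axes, from 0) of the 10 enzymes in each of 3 control (0 Gy) and 3 irradiated (15 Gy) libraries, with the mean and SD beside the points. PHGDH, PSAT1, MTHFD1 and MTHFD2 have every irradiated library below every control, and ALDH1L2 has every irradiated library above.

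PHGDH (chr1:119648411-119744226, plus strand), which catalyses the entry step of serine synthesis, had 564, 650 and 492 CPM in the controls and 277, 343 and 246 CPM after irradiation. The highest irradiated library thus lay below the lowest control. The level was 0.507 of the control, a log2 fold change of -0.98 (SE 0.14, adjusted p = 0.00055).

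PSAT1 (chr9:78297143-78330093, plus strand), the aminotransferase that acts next, read 95.1, 105 and 84.8 CPM in the controls and 40.5, 49.4 and 32.8 CPM after irradiation. Its log2 fold change of -1.22 (SE 0.16, adjusted p = 0.00040) was the largest fall among the 10. Both of its kept transcripts were lower. The call for the minor one, ENST00000347159.6, with 5 to 23 counts in the controls, was lost by DESeq2, with library totals alone, and without control 2, irradiated 1 or irradiated 3 (adjusted p = 0.095, 0.081, 0.091, 0.072 and 0.062). The main one, ENST00000376588.4, held 97.4% of the gene's counts in the controls and 97.6% after irradiation, so the fall ran through the transcript that makes up nearly all of the gene.

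PSPH (chr7:56011051-56051604, minus strand), the phosphatase that releases serine, was measured with 39 to 113 counts per library. Its levels were 9.78, 13.6 and 13.96 CPM in the controls and 7.49, 9.72 and 12.7 CPM after irradiation. The groups overlapped, and the log2 fold change of -0.34 (SE 0.26, adjusted p = 0.36) did not pass the test. None of its 8 kept transcripts passed either.

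The serine hydroxymethyltransferases did not pass as genes. SHMT1 (chr17:18327860-18363563, minus strand) had a log2 fold change of 0.06 (SE 0.17, adjusted p = 0.83), with means of 26.8 ± 2.82 CPM in the controls and 28.1 ± 1.54 CPM after irradiation (SD, n = 3). SHMT2 (chr12:57229327-57234935, plus strand) read 199, 157 and 193 CPM in the controls and 147, 160 and 152 CPM after irradiation, so that the lowest control lay among the irradiated libraries. Its log2 fold change was -0.26 (SE 0.12, adjusted p = 0.14). The log2 ratio of SHMT2 to SHMT1 within a library was 2.76 ± 0.31 in the controls and 2.45 ± 0.12 after irradiation (SD, n = 3; two-sided exact permutation p = 0.20, where 3 against 3 cannot go below 0.1).

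Of the folate interconverting enzymes, MTHFD2 (chr2:74198562-74217565, plus strand), the mitochondrial dehydrogenase and cyclohydrolase, read 389, 491 and 350 CPM in the controls and 223, 294 and 223 CPM after irradiation. All irradiated libraries were below all controls, with a log2 fold change of -0.73 (SE 0.15, adjusted p = 0.0023).

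MTHFD1 (chr14:64388031-64463457, plus strand), the trifunctional cytosolic enzyme, read 166, 169 and 145 CPM in the controls and 110, 101 and 108 CPM after irradiation. These groups were also apart, with a log2 fold change of -0.59 (SE 0.12, adjusted p = 0.0027). The log2 ratio of MTHFD2 to MTHFD1 was 1.35 ± 0.17 in the controls and 1.20 ± 0.29 after irradiation (SD, n = 3; exact permutation p = 0.60), a difference smaller than the spread between libraries.

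MTHFD1L (chr6:150865549-151101887, plus strand), which releases formate in mitochondria, was carried by 36 to 91 counts per library. Irradiated 2 read 12.9 CPM, above all controls (9.03, 9.79 and 11.2 CPM), while irradiated 1 and 3 read 6.29 and 4.60 CPM, below all of them. The log2 fold change was -0.36 (SE 0.33, adjusted p = 0.45), and the log2 ratio of MTHFD1L to MTHFD1 differed by 0.12 (exact permutation p = 0.90). The gene's log2 fold change was -0.89 without irradiated 2 (adjusted p = 0.056) and -0.08 without irradiated 3.

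ALDH1L2 (chr12:105019784-105084577, minus strand), a mitochondrial enzyme that oxidises formyl-tetrahydrofolate, moved the other way from a low level. It had 23, 34 and 33 counts in the controls and 47, 74 and 85 after irradiation, or 5.77, 5.20 and 4.08 CPM against 6.29, 11.1 and 10.9 CPM. Every irradiated library was above every control, but irradiated 1 only just. The log2 fold change was 0.92 (SE 0.31, adjusted p = 0.038), and the call was lost when control 2, control 3, irradiated 2 or irradiated 3 was left out. MTHFS (chr15:79833585-79897379, minus strand), which returns folinic acid to the active folate pool, had 45.9 ± 7.18 CPM in the controls and 40.8 ± 5.84 CPM after irradiation (SD, n = 3), a log2 fold change of -0.16 (adjusted p = 0.51).

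Fold changes over all genes moved with transcript length. In 5 bins of equal size, the median log2 fold change was -0.37 for the genes with the shortest mean transcript and 0.33 for those with the longest. MTHFD1 and MTHFS belonged to the shortest bin and ALDH1L2 to the longest. The lengths cover 18.9% of the counts of MTHFD1, 38.2% of those of MTHFD2 and 67.9% of those of ALDH1L2, so the placing of MTHFD1 and MTHFD2 rests on the minor part of their counts. With the length trend removed, PHGDH stood at -0.96, PSAT1 at -1.20, MTHFD2 at -0.80 and MTHFD1 at -0.36, all still past the threshold, while ALDH1L2 stood at 0.62 (adjusted p = 0.19) and MTHFS turned to 0.16. Scaling also mattered: by library totals alone the median over all genes rose to 0.53, the values of PSPH, SHMT2, MTHFD1L and MTHFS turned positive, and MTHFD1 stood at -0.13 and lost its call. PHGDH then stood at -0.53 (adjusted p = 0.0035), PSAT1 at -0.77 (adjusted p = 0.0041) and MTHFD2 at -0.28 (adjusted p = 0.0495). SHMT1 passed as higher at 0.51 (adjusted p = 0.048), where 32.8% of all genes were higher and 3.2% lower.

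**Figure D2:**
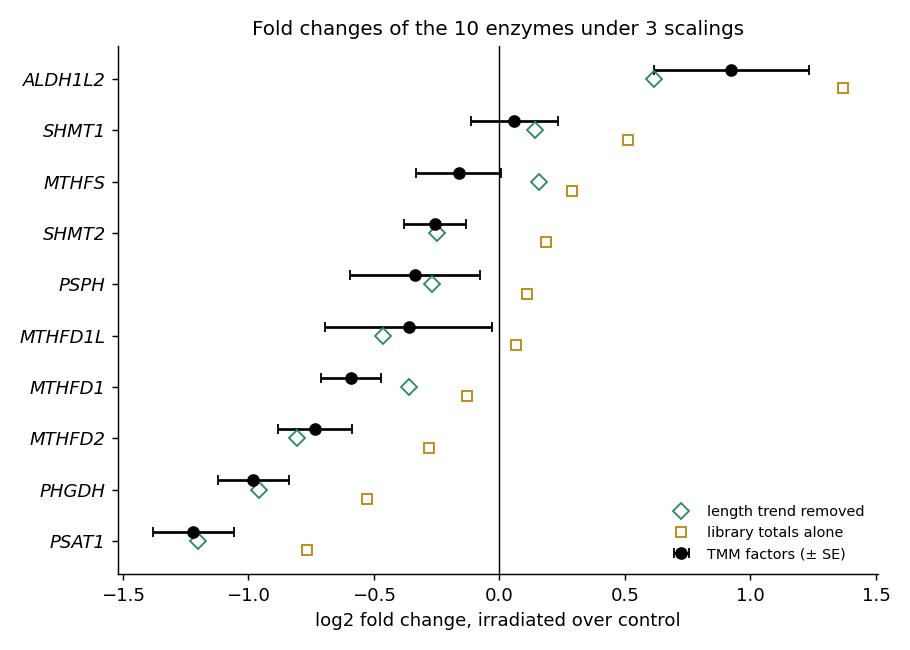
Log2 fold changes (horizontal axis) of the 10 enzymes with TMM factors (circles, bars ± SE), with the length trend removed (diamonds) and with library totals alone (squares). PHGDH, PSAT1, MTHFD2 and MTHFD1 lie left of 0 under all 3, while PSPH, SHMT2, MTHFD1L and MTHFS cross 0 with library totals.

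Of the 107 kept transcripts of these genes, 33 were lower and 4 higher at an adjusted p under 0.05, and 70 were neither, with a median log2 fold change of -0.48 against 0.06 over all transcripts. Over the 74843 transcripts tested, 10.7% were lower and 8.54% higher. The adjusted p-values of this fit moved with the filter. The main PSAT1 transcript, ENST00000376588.4, had 4.6e-12 here, and 3.0e-08 with at least 10 counts in 3 libraries required. Its gene had 0.00040 in the gene fit. That filter left 27 transcripts lower and 4 higher, against 21.2% and 16.6% of all transcripts. With library totals alone the balance turned, to 20 lower and 29 higher, against 3.28% and 25.6% of all transcripts. The lower ones sat mainly in PHGDH (10 of 20), MTHFD1 (10 of 24) and MTHFD2 (6 of 19). Isoforms that share most of their sequence also share reads, so their values are not independent of each other.

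Within PHGDH the fall was uneven. The main protein-coding transcript, ENST00000641023.2, read 90.4, 110 and 77.5 CPM in the controls and 41.0, 51.9 and 34.4 CPM after irradiation, a log2 fold change of -1.13. ENST00000641597.1, protein-coding and with a far upstream first exon, went from 70.8 to 21.1 CPM (-1.75), and ENST00000641213.1, classed as a target of nonsense-mediated decay, from 49.8 to 15.8 CPM (-1.66). By contrast ENST00000641756.1 (27.6 and 26.7 CPM) and the retained-intron transcripts ENST00000369407.3 (24.1 and 23.2 CPM) and ENST00000482968.1 (16.9 and 17.3 CPM) had log2 fold changes of -0.05, -0.06 and 0.03. These last transcripts, named after their values were seen, start 787, 7912 and 27747 bases after the first base of the main transcript.

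Grouped by start after the values were seen, and so given without a test, the 14 PHGDH transcripts that start before, at or under 500 bases after the main one had log2 fold changes of -2.32 to -0.32, 9 of them lower. The 6 that start later ran from -1.73 to 0.26, with 1 lower. Among the 14, ENST00000641115.1 and ENST00000641074.1 start 183 and 171 bases after the main one and went against this division. Their log2 fold changes were -0.33 and -0.32 (adjusted p = 0.22 and 0.23), and both gained share (usage adjusted p = 0.043 and 0.039). The later-starting transcripts held 13.4%, 10.8% and 15.6% of PHGDH counts in the controls and 27.0%, 24.0% and 28.3% after irradiation. Each irradiated share was above each control share.

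**Figure D3:**
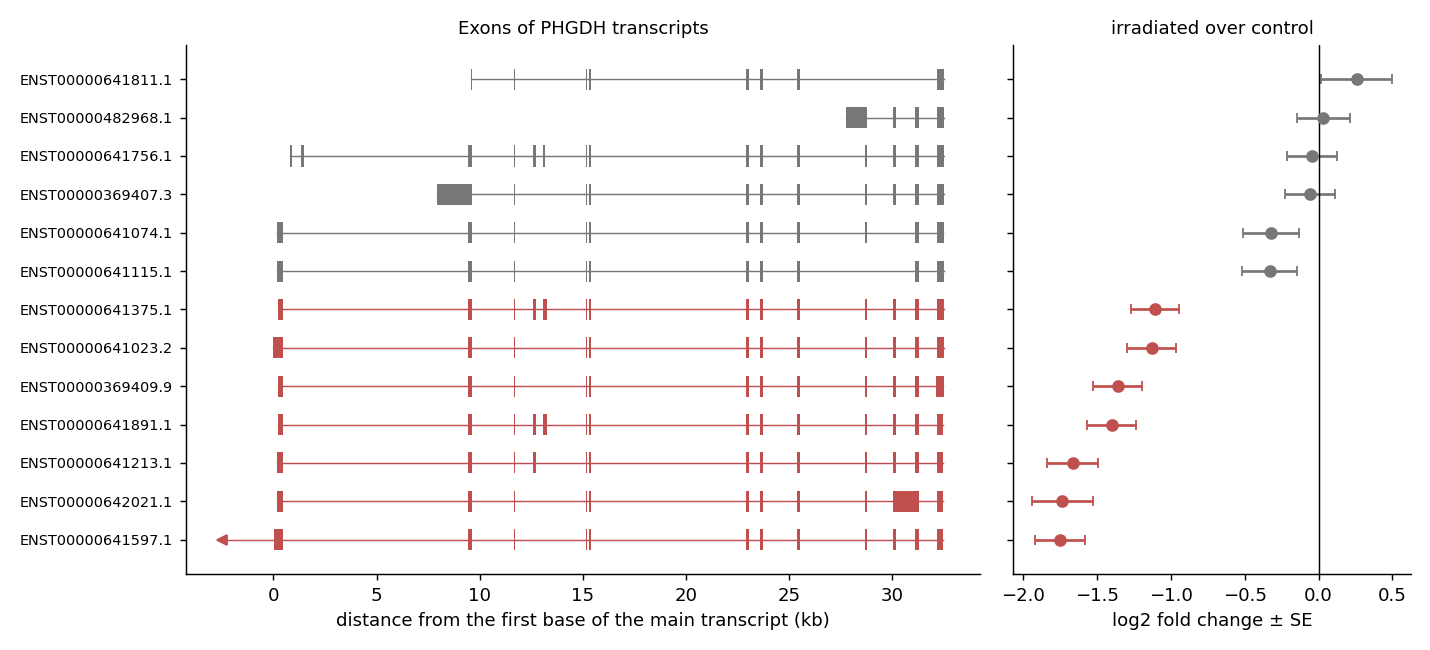
Left, exons (boxes) of the PHGDH transcripts that reached 10 counts in 3 or more libraries, by distance in kb from the first base of ENST00000641023.2, with an arrowhead where a transcript runs further upstream. Right, their log2 fold changes, irradiated over control, ± SE, red where the adjusted p is under 0.05 and grey otherwise. Transcripts at -1.11 or below are red, and the 4 drawn that start 787 bases or more downstream lie between -0.06 and 0.26.

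Isoforms of MTHFD2 also differed. ENST00000394053.7, its main protein-coding transcript, read 72.9, 91.4 and 59.2 CPM in the controls and 28.8, 43.4 and 27.4 CPM after irradiation (-1.17). ENST00000678955.1, ENST00000489041.2 and ENST00000678228.1 fell by 1.44, 1.44 and 1.54 on the log2 scale. Of these, ENST00000489041.2 is classed as a target of nonsense-mediated decay, and the others have no class in release 29. The share of counts of ENST00000678228.1 went from 15.2% ± 1.43 to 9.04% ± 0.96 (SD, n = 3; usage adjusted p = 0.0074). Of the 19 MTHFD2 transcripts, 3 lost and 11 gained share at a usage adjusted p under 0.05, where 0.927% and 3.59% of all transcripts did. None of the 19 passed as higher in level, and the 11 had log2 fold changes of 0.02 to 0.38. In MTHFD1, ENST00000652337.1, the transcript with the highest share, fell by 0.91 on the log2 scale, ENST00000697171.1 by 1.17, ENST00000554768.6 by 1.42 and ENST00000652179.1 by 1.68.

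Over all 107 transcripts, 8 lost share and 23 gained share at a usage adjusted p under 0.05, against 0.927% and 3.59% of the 73603 transcripts tested for usage. A switch, here an adjusted p under 0.05 with a difference of at least 10 percentage points in mean share, was called for 3 of them, in MTHFS, SHMT1 and SHMT2, against 0.41% of all transcripts. Each of these genes missed the threshold in the gene fit.

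In MTHFS the isoforms differ in their first exon. ENST00000258874.4, the main one, and ENST00000559722.2, which starts 330 bases upstream, each have 3 exons and share the last 2 exactly. Their coding sequences are 609 and 696 bases long. The coding part of each first exon is shown because it lies in the part of the transcripts that is not shared. Both were read 5′ to 3′ from the GENCODE release 29 transcripts (GRCh38, minus strand), at chr15:79896872-79896988 and chr15:79897161-79897364, with the start codon in capitals.
ENST00000258874: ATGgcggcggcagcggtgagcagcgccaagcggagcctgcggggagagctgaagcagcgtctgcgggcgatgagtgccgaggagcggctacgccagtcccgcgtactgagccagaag
ENST00000559722: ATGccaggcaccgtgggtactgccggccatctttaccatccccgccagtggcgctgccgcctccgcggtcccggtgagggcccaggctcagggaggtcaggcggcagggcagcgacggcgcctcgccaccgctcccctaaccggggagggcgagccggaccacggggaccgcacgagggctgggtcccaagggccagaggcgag

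The upstream isoform, ENST00000559722.2, held 8.21%, 6.41% and 9.77% of MTHFS counts in the controls and 24.1%, 23.0% and 27.1% after irradiation. The gain of 16.6 percentage points had a usage adjusted p of 9.4e-05 and ran from 15.4 to 17.5 points over the alternatives, with the call held in each. Its counts were 17, 20 and 30 in the controls and 67, 73 and 80 after irradiation, and its level rose by 1.42 on the log2 scale (SE 0.24, adjusted p = 3.3e-07). The main isoform went from 91.0% ± 0.89 to 74.9% ± 1.94 (SD, n = 3) and its level fell by 0.49 on the log2 scale (adjusted p = 0.021). Its share was 90.2% to 92.0% in the controls and 72.9% to 76.7% after irradiation, with no overlap. It did not pass the usage test (adjusted p = 0.62). That test sets the fold change of a transcript against that of its gene. This isoform makes up most of the gene, so the test can hardly decide on its share. The call on the level of the main isoform was lost without control 1, control 2, irradiated 1 or irradiated 3. With library totals alone its log2 fold change was 0.0126. The lengths of the isoforms, 907 and 948 bases, are close, and the read-through gene ST20-MTHFS had 2 counts in all.

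In SHMT1 the retained-intron transcript ENST00000395684.5, which starts 21832 bases after the main one, held 12.8%, 13.9% and 14.4% of counts in the controls and 29.5%, 22.9% and 27.5% after irradiation (usage adjusted p = 0.0081). ENST00000316694.8, the main coding transcript, went from 44.9% to 36.1%, which did not pass the usage test (adjusted p = 0.59), and neither did the short ENST00000583780.2, from 27.2% to 17.0% (adjusted p = 0.070). The level of the retained-intron transcript rose by 0.94 on the log2 scale (adjusted p = 0.0021). With counts divided by length its gain was 7.04 points, under the limit for a switch. Transcripts classed as protein-coding together held 78.4% ± 3.28 of SHMT1 counts in the controls and 59.7% ± 3.90 after irradiation (SD, n = 3), with no overlap between groups. That class includes ENST00000583780.2, which is 332 bases long and has 3 annotated coding bases, so part of the fall is not in full coding transcripts.

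In SHMT2 the switched transcript was the main coding one, ENST00000328923.8, with 30.9%, 36.9% and 25.1% of counts in the controls and 17.4%, 20.3% and 18.4% after irradiation (usage adjusted p = 0.0050). Its level fell by 1.01 on the log2 scale (SE 0.17, adjusted p = 1.1e-07). The retained-intron transcript ENST00000554467.5 went from 4.08% ± 1.18 to 7.50% ± 0.43 of counts (SD, n = 3; usage adjusted p = 0.011). Protein-coding transcripts together went from 49.1% ± 3.94 to 38.4% ± 1.86 (SD, n = 3). The switch calls in SHMT1 and SHMT2 were less steady than the one in MTHFS: both were lost without irradiated 1 or irradiated 3, which leaves 1 called isoform, and the SHMT2 call also without control 1 or control 2.

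**Figure D4:**
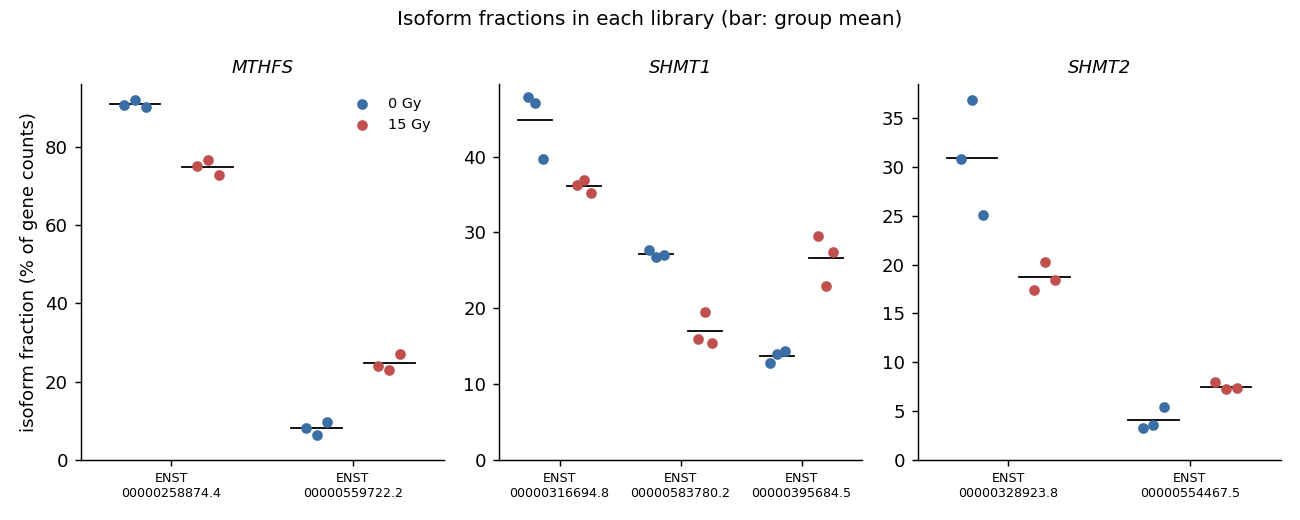
Isoform fraction, the percent of a gene's kept counts held by a transcript (vertical axes, from 0), for MTHFS, SHMT1 and SHMT2 in each control (0 Gy) and irradiated (15 Gy) library, with the group mean as a bar. For ENST00000559722.2, ENST00000395684.5 and ENST00000328923.8 the groups do not overlap.

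The rest of the pathway was described from lists of other one-carbon genes, whose counts stand beside the 14.1% lower and 11.6% higher of all genes. Among 9 other folate cycle enzymes tested, 3 were lower and 2 higher: MTHFD2L, a mitochondrial relative of MTHFD2, fell by 1.10 on the log2 scale, and MTR, the methionine synthase, and TYMS, the thymidylate synthase, rose by 0.86 and 0.74. MTFMT, which formylates the initiator tRNA of mitochondria, fell by 0.77. Of 11 transporters, only SLC19A1, the reduced folate carrier, passed, with a rise of 0.98 on the log2 scale. Of 8 methionine cycle and transsulfuration genes, 3 were lower, among them MAT2B, a subunit of the enzyme that makes the methyl donor S-adenosylmethionine, by 0.68. DLD, the dihydrolipoamide dehydrogenase that the glycine cleavage system shares with other complexes, fell by 0.65, and was the 1 of 2 genes of that system to pass. ATIC, which uses formyl-folate in purine synthesis, fell by 0.46, and was the 1 of 2 genes of its list to pass. The list medians lay between -0.46 and -0.16.

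Among 6 regulators of serine synthesis genes, 3 were lower and 2 higher, where all genes gave 14.1% and 11.6%. ATF4 read 365, 448 and 425 CPM in the controls and 298, 326 and 263 CPM after irradiation, a log2 fold change of -0.48 (SE 0.12, adjusted p = 0.0099) with no overlap between groups. DDIT3 and TRIB3, targets of ATF4 in the stress response, fell by 0.65 and 0.55, and the groups overlapped for TRIB3 but not for DDIT3. NFE2L2, and CEBPB, named after its value was seen, rose by 0.48 and 0.59, each with overlap between the groups. The scalings were run on these pathway genes after the data were seen. With library totals alone none of the named genes that were lower kept its call, and ATF4 stood at -0.03 (adjusted p = 0.81), MTHFD2L at -0.65 (adjusted p = 0.058), while SLC19A1, MTR and TYMS stood at 1.43, 1.30 and 1.18 and kept theirs. With the length trend removed, DDIT3, TRIB3 and MTR lost their calls (adjusted p = 0.12, 0.11 and 0.056) and ATF4 kept its own at -0.38. With RLE factors NFE2L2 and CEBPB lost theirs (adjusted p = 0.051 and 0.052).

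Upstream windows of 250 bases from RefSeq (GRCh38.p14) matched 7 of the 10 genes; PSPH, SHMT2 and ALDH1L2 had no entry. They were searched on both strands for the core of the C/EBP-ATF response element that ATF4 can bind (TGATGNAA), the E-box (CACGTG) and the CCAAT box (CCAAT, added after the letters were seen). The first was found in 3.14% of all 35116 windows, the second in 6.34% and the third in 32.01%. The windows of PHGDH, PSAT1 and MTHFD2 held neither of the first and second. CCAAT stood once in that of PHGDH, 3 times in that of PSAT1 and 2 times in that of MTHFD2. MTHFD1 had 1 CCAAT and 1 CACGTG. Of the genes that did not pass the test, SHMT1 had 2 CCAAT and MTHFS had no match to any of the 3 motifs. MTHFD1L, with 4 windows, had 1 CCAAT in each of 3 that overlap each other, and both CACGTG and TGATGNAA in 2 of these. CCAAT was thus found in genes that fell and in genes that did not pass. Some windows overlap exons annotated in release 29. That of PHGDH (chr1:119711684-119711933) runs into the first exon of ENST00000641023.2, from 119711715, and its CCAAT lies in that exon. That of MTHFD1 lies within the first exon of ENST00000545908.6. That of MTHFS overlaps the first exons of ENST00000258874.4 and ENST00000559722.2. The MTHFD1L windows that held TGATGNAA run into the first exon of ENST00000618312.4. No matches overlapped. The windows of PSAT1 (chr9:78296875-78297124, plus strand) and MTHFD2 (chr2:74198365-74198561, plus strand, ended before the first annotated exon base) are shown, as genes that fell together, with CCAAT in capitals.
PSAT1: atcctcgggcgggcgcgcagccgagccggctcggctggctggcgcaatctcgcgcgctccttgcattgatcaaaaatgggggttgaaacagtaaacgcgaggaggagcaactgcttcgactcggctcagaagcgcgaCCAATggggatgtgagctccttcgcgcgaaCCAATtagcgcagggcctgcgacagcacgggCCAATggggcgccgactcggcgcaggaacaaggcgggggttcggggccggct
MTHFD2: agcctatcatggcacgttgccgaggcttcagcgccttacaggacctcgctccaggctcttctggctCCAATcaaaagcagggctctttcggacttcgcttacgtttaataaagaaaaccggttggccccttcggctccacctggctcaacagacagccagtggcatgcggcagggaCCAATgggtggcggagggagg

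Across the 6 libraries the log2 CPM of PHGDH ran with that of PSAT1 (r = 0.996), MTHFD2 (r = 0.982) and MTHFD1 (r = 0.924), a description in which the 2 groups set much of the spread. Among genes outside the list with a mean of at least 10 CPM, those most like PHGDH were ZNF695 (r = 0.9989), HNRNPDL (r = 0.9979), UAP1 (r = 0.9974), SSB (r = 0.9972) and BCCIP (r = 0.9969), all over 6 libraries and with no test.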

How the data were processed

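Values are counts per transcript and library, as deposited. Per the labels and the study's methods, the authors mapped reads with minimap2 (genome GRCh38) and estimated transcript counts with Salmon (no version stated in the sources used here). The library kit adds molecular identifiers, but a step that collapses reads by them is named nowhere in those sources. A gene needed 10 counts in 3 libraries and 2 transcripts that each had 3 counts in 1 library or more.

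Kept counts were summed per gene and tested with edgeR 4.0.16 in R 4.3.3 (TMM factors, robust quasi-likelihood test, Benjamini-Hochberg adjustment over all features), and transcripts likewise. Isoform usage was tested with diffSpliceDGE, which compares the fold change of a transcript with that of its gene, on counts not divided by length. CPM are TMM-normalized, except those of markers, which were scaled to library totals. Classes, lengths and positions came from GENCODE release 29, in which 76 of the 107 kept member transcripts were found (74.4% of their counts). The gene, transcript and usage tests were also run on simulated data. Those counts were drawn independently, with the same setting of spread for all features. They held no length trend and no reads shared between isoforms, so they do not bear on those effects.

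The members and all lists were chosen with earlier results of these data known. Named transcripts are, for each gene, the one with the highest mean share, up to 3 with the smallest adjusted p among those that reached 10 counts in 3 libraries, and every switched isoform. Up to 4 genes per list were named by adjusted p. One marker fixed for the cell type check is not reported here.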

Additional observations from a re-analysis of the deposited data

How the results depend on the processing

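Library scaling mattered most. With library totals alone the log2 fold changes of PSPH, SHMT2, MTHFD1L and MTHFS turned to 0.11, 0.188, 0.0663 and 0.289, and those of the transcripts ENST00000275605.8, ENST00000316694.8, ENST00000367307.8, ENST00000618312.4 and ENST00000258874.4 to 0.277, 0.208, 0.173, 0.122 and 0.0126. There 20 member transcripts were lower and 29 higher (3.28% and 25.6% of all transcripts), and 2 genes higher (32.8% of all genes). With the length trend removed MTHFS turned to 0.159. No gene was higher by DESeq2 1.42.0 or with the length trend removed (0 in each, against 9.77% and 9.24% of all genes), and DESeq2 called 2 transcripts higher (5.69% of those it gave an adjusted p). limma's diffSplice called 5 switches (1.24% of all transcripts).

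Leaving out each library in turn left 4 genes lower throughout, 0 to 1 higher, 22 to 33 transcripts lower, 2 to 4 higher and 1 to 3 switches. Over all features these runs gave 8.79% to 17.3% of genes lower and 6.24% to 15.6% higher, 7.1% to 12.8% of transcripts lower and 4.35% to 11.4% higher, and 0.148% to 1.05% switched. The log2 fold change of SHMT1 ran from -0.0277 (without control 1) to 0.115, and that of ENST00000618312.4 from -1.11 (without irradiated 2) to 0.00735 (without irradiated 3). Over these runs the log2 ratio difference ran from -0.48 to -0.16 for SHMT2 over SHMT1, -0.31 to -0.05 for MTHFD2 over MTHFD1 and -0.34 to 0.45 for MTHFD1L over MTHFD1.

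The labels give no pairing of libraries beyond the replicate number. The correlations of deviations were -0.03, 0.28 and 0.10 for like numbers and -0.325 to 0.248 for unlike ones. PHGDH and PSAT1 were highest in replicate 2 and lowest in replicate 3 of both groups. A replicate block gave gene-fit adjusted p-values of 2.1e-06 for PHGDH, 4.2e-06 for PSAT1 and 2.5e-05 for MTHFD2. MTHFD1 had 0.00086 and ALDH1L2 0.04. Without the block these were 0.00055, 0.00040, 0.0023, 0.0027 and 0.038. With a replicate block 4 genes were lower and 1 higher, and 32 transcripts were lower and 5 higher, ENST00000554467.5 among them at 0.544, against 15.1% and 13.9% of all genes and 10.9% and 9.19% of all transcripts. Shares divided by length could be computed only for transcripts with a release 29 length. Genes with under 10 CPM rest on few reads.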
